A study of Mus musculus with 20 samples.

Results

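The 9 genes described here encode core steps of the renin-angiotensin system (Ace, Agt, Agtr1a), the mineralocorticoid receptor and a steroid-activating enzyme (Nr3c2, Hsd11b1), and the receptors and the processing enzyme of the natriuretic peptides (Npr1, Npr2, Npr3, Corin). They were chosen by name among 55335 genes in a table of heart RNA counts, and all 9 passed the filter on low counts that left 14878 genes for testing. The 20 libraries were made from heart tissue of C57BL/6N mice on the NIH-31 diet, whose age was 3 to 5 months. Wild-type (WT) mice and mice with a knockout (KO) of OGFOD1, an oxygenase that hydroxylates a ribosomal protein, were given either PBS with sodium ascorbate (vehicle) or the same solution containing isoproterenol. Isoproterenol is a beta-adrenergic agonist, and both solutions ran from an osmotic minipump for 2 weeks. Each of the 4 groups, WT vehicle, WT isoproterenol, KO vehicle and KO isoproterenol, had 5 libraries. The labels give neither the knockout allele, nor the dose, nor the sex, and do not say that each library came from a separate mouse. The p-values therefore measure the spread between libraries, which may be technical.

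Angiotensinogen, the product of Agt, is cut by renin to angiotensin I, which angiotensin-converting enzyme (Ace) turns into angiotensin II. Angiotensin II acts on the type 1 receptor (Agtr1a) to constrict vessels and to raise aldosterone, the ligand of the mineralocorticoid receptor (Nr3c2). The natriuretic peptides ANP and BNP oppose this system through the guanylyl cyclase Npr1, whereas C-type peptide signals through the guanylyl cyclase Npr2 and Npr3 clears the peptides. Corin is the cardiomyocyte protease that cleaves the ANP precursor, and Hsd11b1 regenerates active glucocorticoid from its inert keto form.

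Total counts were 14609808 to 43671055 per library, of which 55.5% to 61.9% came from the mitochondrial genome. Ogfod1 separated the genotypes, at 16.9 to 21.8 CPM (counts scaled to library size, with TMM factors) in WT libraries and 2.39 to 4.13 CPM in KO libraries. The 6 cardiomyocyte markers summed to 23255 to 29904 CPM in WT vehicle and 19845 to 21560 CPM in WT isoproterenol libraries, without overlap. Of the 6, 3 fell there at an edgeR adjusted p under 0.05, beside 4.12% of all tested genes. Without WT vehicle replicate 2 the WT vehicle range was 23255 to 26310.5 CPM. In KO the markers summed to 21542 to 23775 and 15984 to 21747 CPM, with 1 lower, beside 4.29% of all tested genes. The second KO range was 19743 to 21747 CPM without KO isoproterenol replicate 5. In the average over genotypes 4 of the 6 markers fell and 1 rose, beside 9.07% and 9.76% of all tested genes. Their part in the falls of Npr2, Hsd11b1 and Agtr1a given below was not tested. No marker of the 10 cell type lists was at 0 in all 20 libraries. KO isoproterenol replicate 5 and WT vehicle replicate 2 stood apart from their groups. Their chi-square per degree of freedom against the other 4 libraries of the group was 17.8 to 24.7 and 21.3 to 27.4, against 3.03 to 8.47 in the remaining within-group pairs. Values that turn on either library are given with and without it, except counts of markers called. In whole hearts, fewer cells of a type and less RNA per cell cannot be told apart.

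In WT vehicle hearts, expression per kilobase of exon covered a wide range across the 9 genes. Corin was highest at 34.1 ± 1.54 CPM per kilobase (SD, n = 5). Ace followed at 8.66 ± 0.567, Npr2 at 6.88 ± 0.415 and Agtr1a at 6.26 ± 0.557 CPM per kilobase. Nr3c2 measured 3.81 ± 0.0936, Npr3 3.10 ± 0.319 and Npr1 2.60 ± 0.241 CPM per kilobase. Agt, at 1.74 ± 0.313, and Hsd11b1, at 1.27 ± 0.167 CPM per kilobase, were lowest. The library ranges of the neighbours Npr2 and Agtr1a, of Npr3 and Npr1, and of Agt and Hsd11b1 overlapped, whereas the other neighbours in this order did not. The rarest members rested on few reads, with 27 to 146 counts per library for Agt and 62 to 170 for Hsd11b1.

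**Figure D1:**
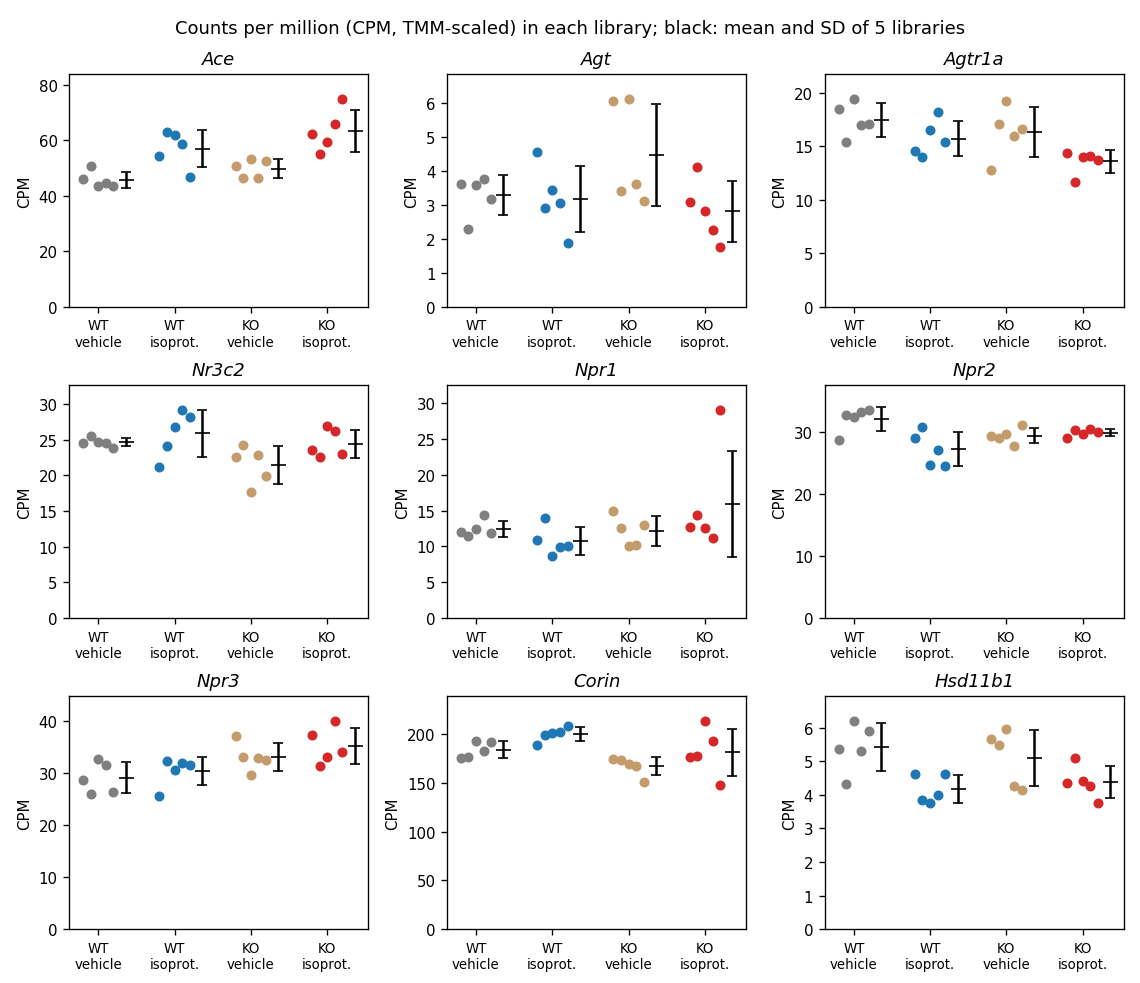
Expression of the 9 genes in CPM (vertical axis, starting at 0, 1 scale per panel) in each of the 20 libraries, by group on the horizontal axis; points are libraries and black bars the group mean ± SD (n = 5). Ace sits higher under isoproterenol in both genotypes, and 1 KO isoproterenol library lies far above the rest for Npr1 (29.1 CPM against 11.2 to 14.3 CPM in the other 4).

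Isoproterenol was compared with vehicle in each genotype and averaged over both. Ace was the 1 member that rose in both genotypes. Npr2 and Hsd11b1 fell in WT hearts, and Agtr1a and Hsd11b1 fell in the average over genotypes. In WT hearts 3 of 9 members passed edgeR's quasi-likelihood test at an adjusted p under 0.05, 1 higher and 2 lower, beside 8.76% of all tested genes (4.64% higher, 4.12% lower). In KO hearts 1 of 9 passed, beside 9.03% (4.75% higher, 4.29% lower), and in the average 3 of 9 passed, 1 higher and 2 lower, beside 18.8% (9.76% higher, 9.07% lower). The KO share was near its background, and the other shares rest on 3 genes each. The median log2 fold change of the 9 was −0.06 in WT, 0.09 in KO and 0.08 in the average, against 0.0039, 0.012 and 0.0078 over all tested genes.

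Ace (ENSMUSG00000020681; GRCm38 chromosome 11, 105967945 to 105989964, plus strand) encodes the peptidase that makes angiotensin II and also breaks down bradykinin. RefSeq lists a pair of start sites for this gene, and the counts per gene do not tell their transcripts apart. The 250 bases before each start (RefSeq, GRCm38.p6, plus strand) are shown because Ace is the member with the firmest change. Capitals mark the GC box, GGGCGG or its reverse complement CCGCCC.
Ace first start, chr11:105967698-105967947: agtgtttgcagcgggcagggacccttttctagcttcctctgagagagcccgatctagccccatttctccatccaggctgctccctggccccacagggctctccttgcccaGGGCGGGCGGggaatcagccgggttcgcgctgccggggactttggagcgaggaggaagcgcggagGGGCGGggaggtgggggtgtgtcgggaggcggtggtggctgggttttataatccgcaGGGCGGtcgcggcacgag
Ace second start, chr11:105974939-105975188: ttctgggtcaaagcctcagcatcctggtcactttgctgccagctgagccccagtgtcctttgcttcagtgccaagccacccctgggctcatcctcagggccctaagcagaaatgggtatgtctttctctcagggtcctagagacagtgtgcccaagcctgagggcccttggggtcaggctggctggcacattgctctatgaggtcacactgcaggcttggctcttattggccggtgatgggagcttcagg
The first window is 67.2% G and C and holds 4 GC boxes, of which a pair overlap. The second lies inside the gene and holds 0. Over 32851 such windows the median was 52.4% G and C, and 32.7% held a GC box on either strand. The exact cAMP response element TGACGTCA was in 1.55% of these windows and in 0 of the 9 windows that the table gave for 8 members. Near matches to it were not counted. Among those members the windows of Ace, Npr1 and Nr3c2 held a GC box, and the TGACG core, present in 17.8% of windows, was in that of Npr3.

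In the 5 WT vehicle libraries Ace measured 46.1, 50.8, 43.5, 44.8 and 43.7 CPM. With isoproterenol the WT libraries measured 54.4, 63.1, 61.9, 58.8 and 46.7 CPM. All but 1 of the WT isoproterenol libraries lay above every WT vehicle library. In KO hearts Ace measured 50.6, 46.3, 53.1, 46.5 and 52.6 CPM with vehicle and 62.3, 55.0, 59.3, 65.9 and 75.0 CPM with isoproterenol. The KO groups did not overlap, which held for 3.75% of all tested genes in this direction. Ace rose by a log2 fold change of 0.32 in WT (SE 0.0801, edgeR adjusted p = 0.0107), by 0.35 in KO (SE 0.0797, edgeR adjusted p = 0.00457) and by 0.34 in the average (SE 0.0565, edgeR adjusted p = 7.81e-05). The responses of the genotypes differed by 0.03 (95% interval −0.20 to 0.26, edgeR adjusted p = 0.963). Without KO isoproterenol replicate 5, the highest Ace library, the KO value was 0.29 (adjusted p = 0.0153). Ace passed in all 30 alternative analyses of each genotype.

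Markers of several cell types moved beside Ace. The summed level of 7 fibroblast markers was 416 to 463 CPM in WT vehicle and 489 to 575 CPM in WT isoproterenol libraries, and 454 to 531 and 549 to 961 CPM in the KO groups. The last range was 548.8 to 625.3 CPM without KO isoproterenol replicate 5. Of these 7 markers 3 rose in each genotype. The 5 endothelial markers are of the cell type in which Ace is best known. They summed to 411 to 434 and 446 to 487 CPM in the WT groups, with 2 markers higher. In the KO groups they summed to 428 to 462 with vehicle and 411 to 454 CPM with isoproterenol, with 1 lower. Without KO isoproterenol replicate 5 the last range was 432 to 454 CPM. The 6 smooth muscle and pericyte markers summed to 546 to 645 and 663 to 761 CPM in the WT groups, with 2 markers higher. Their KO sums were 596 to 707 and 676 to 1632 CPM, with 1 higher. The latter range was 676 to 713 CPM without KO isoproterenol replicate 5. The 4 macrophage markers summed to 54.5 to 67.7 and 64.3 to 92.3 CPM in WT, with 1 higher. Without WT vehicle replicate 2 the WT vehicle range was 54.5 to 60.8 CPM. In KO these markers summed to 63.6 to 69.6 and 74.1 to 90.1 CPM, with 2 higher. Beside these marker counts, 4.64% of all tested genes were called higher and 4.12% lower in WT, and 4.75% and 4.29% in KO. The part of cell composition in the Ace change was not tested. Across the 20 libraries the log2 CPM of Ace ran closest to that of Fat1 (Pearson r = 0.918), Sfrp1 (0.912) and Bgn (0.892) among 11433 candidate genes, a description of libraries that share treatment and depth.

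Agt (ENSMUSG00000031980; chromosome 8, 124556534 to 124569706, minus strand), the substrate of the system, was low and variable. KO vehicle libraries measured 6.08, 3.43, 6.14, 3.62 and 3.13 CPM, and KO isoproterenol libraries 3.09, 4.13, 2.84, 2.27 and 1.77 CPM. All but 1 of the KO isoproterenol libraries lay below every KO vehicle library. The log2 fold change in KO was −0.66 (SE 0.236, edgeR adjusted p = 0.0841), which passed in 4 of 30 alternatives, among them DESeq2 (adjusted p = 0.0415) and the fit without KO isoproterenol replicate 2 (0.0354). In WT hearts Agt measured 3.62, 2.31, 3.60, 3.76 and 3.19 CPM with vehicle and 4.56, 2.91, 3.45, 3.07 and 1.89 CPM with isoproterenol. The WT ranges overlapped widely, and the log2 fold change was −0.06 (95% interval −0.55 to 0.43, adjusted p = 0.912). The difference between the responses was −0.60 (SE 0.335, edgeR adjusted p = 0.683).

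Agtr1a (ENSMUSG00000049115; chromosome 13, 30336441 to 30382867, plus strand), the angiotensin II receptor, fell when the genotypes were averaged. WT libraries measured 18.5, 15.4, 19.4, 16.9 and 17.0 CPM with vehicle and 14.6, 14.0, 16.5, 18.2 and 15.4 CPM with isoproterenol. KO libraries measured 12.8, 17.1, 19.3, 15.9 and 16.6 CPM with vehicle and 14.4, 11.7, 14.0, 14.1 and 13.7 CPM with isoproterenol. The groups overlapped in both genotypes, in KO through 1 vehicle library at 12.8 CPM that lay below all but 1 of the isoproterenol libraries. The averaged log2 fold change was −0.20 (SE 0.0658, edgeR adjusted p = 0.0276), from −0.15 in WT (adjusted p = 0.350) and −0.26 in KO (adjusted p = 0.0810). The averaged call was lost without WT vehicle replicate 3 (adjusted p = 0.0614), WT isoproterenol replicate 2 (0.0519), KO vehicle replicate 3 (0.0570) or KO isoproterenol replicate 2 (0.0570). It held without KO isoproterenol replicate 5 and WT vehicle replicate 2 (−0.22, edgeR adjusted p = 0.0180). The KO value alone passed without KO vehicle replicate 1, at −0.34 (adjusted p = 0.0153).

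Nr3c2 (ENSMUSG00000031618; chromosome 8, 76899442 to 77245012, plus strand), the mineralocorticoid receptor, did not pass for isoproterenol. Group means were 24.7 ± 0.606 CPM in WT vehicle, 25.9 ± 3.28 in WT isoproterenol, 21.5 ± 2.66 in KO vehicle and 24.4 ± 1.95 CPM in KO isoproterenol (SD, n = 5 each). Log2 fold changes were 0.07 in WT (95% interval −0.10 to 0.24, edgeR adjusted p = 0.653) and 0.18 in KO (0.01 to 0.36, adjusted p = 0.180).

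Hsd11b1 (ENSMUSG00000016194; chromosome 1, 193221634 to 193264075, minus strand), the glucocorticoid-regenerating enzyme, fell with isoproterenol. In WT hearts it measured 5.36, 4.33, 6.19, 5.30 and 5.89 CPM with vehicle and 4.62, 3.85, 3.75, 3.98 and 4.61 CPM with isoproterenol. The overlap came from 1 vehicle library at 4.33 CPM, below which 3 of the isoproterenol libraries lay. KO libraries measured 5.67, 5.47, 5.95, 4.26 and 4.13 CPM with vehicle and 4.34, 5.08, 4.42, 4.26 and 3.75 CPM with isoproterenol. All 5 KO isoproterenol libraries lay below the KO vehicle mean, yet the ranges overlapped. Log2 fold changes were −0.40 in WT (SE 0.126, edgeR adjusted p = 0.0436), −0.22 in KO (SE 0.126, adjusted p = 0.317) and −0.31 in the average (SE 0.0890, adjusted p = 0.0140). The average passed in all 29 alternatives. The WT call passed in 19 of 30 alternatives, and its adjusted p reached 0.121 without WT vehicle replicate 3. With no filter on low counts it was lost at an adjusted p of 0.0681. The 9 other libraries whose removal ended it, with adjusted p from 0.0505 to 0.107, were WT vehicle replicates 1, 4 and 5, WT isoproterenol replicates 2, 3 and 4, KO vehicle replicate 2, and KO isoproterenol replicates 1 and 4. Lamb3, on the opposite strand, overlaps the Hsd11b1 locus, shares 0 exon bases with it and reached 312 counts in a library. The strand setting of the counts is not given in the sources used here.

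**Figure D2:**
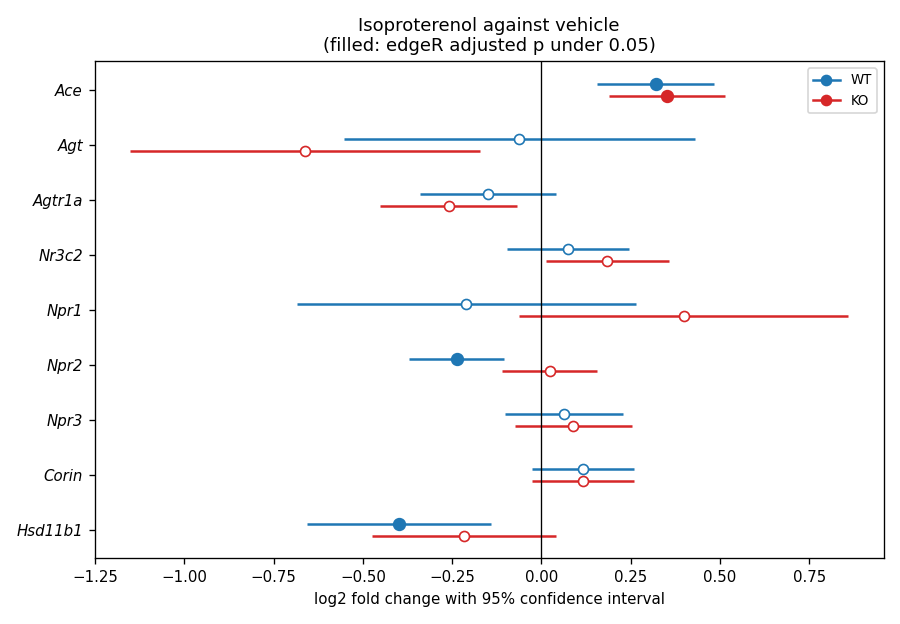
Log2 fold change of isoproterenol against vehicle (horizontal axis) for each of the 9 genes in WT and in KO, with 95% intervals from the edgeR fit of 20 libraries; filled points passed at an adjusted p under 0.05. Ace is to the right of 0 in both genotypes. The Npr2 points of WT (−0.24) and KO (0.02) lie apart, but their difference of 0.26 (95% interval 0.07 to 0.45) did not pass (edgeR adjusted p = 0.518).

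Among the natriuretic peptide receptors, Npr2 (ENSMUSG00000028469; chromosome 4, 43631935 to 43651244, plus strand), the C-type peptide receptor, fell in WT hearts. WT vehicle libraries measured 28.7, 32.6, 32.4, 33.2 and 33.5 CPM and WT isoproterenol libraries 28.9, 30.7, 24.7, 27.1 and 24.5 CPM. All but 1 of the vehicle libraries lay above every isoproterenol library. KO libraries measured 29.4, 29.0, 29.6, 27.7 and 31.1 CPM with vehicle and 29.0, 30.2, 29.7, 30.4 and 30.0 CPM with isoproterenol, and the narrow isoproterenol range lay inside the vehicle range. The log2 fold change was −0.24 in WT (SE 0.0652, edgeR adjusted p = 0.0199) and 0.02 in KO (95% interval −0.11 to 0.16, adjusted p = 0.886). The WT call was lost with 2 surrogate variables (adjusted p = 0.0639) and without WT vehicle replicate 4 (0.0518), WT isoproterenol replicate 3 (0.0699) or WT isoproterenol replicate 5 (0.0567). It held without KO isoproterenol replicate 5 and WT vehicle replicate 2 (−0.23, edgeR adjusted p = 0.0260).

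The difference between the Npr2 responses was 0.26 (95% interval 0.07 to 0.45), with an unadjusted edgeR p of 0.00841 and an adjusted p of 0.518. It was the 1 member under an unadjusted p of 0.05 for this comparison. Of all tested genes, 0 (0%) passed for the difference with edgeR after adjustment, although 1142 (7.68%) were under an unadjusted p of 0.05. DESeq2 called 5 genes and had 1120 under an unadjusted p of 0.05, and limma-voom had 1169 under it. No member passed with any of these tools after adjustment, and 2 members were under the unadjusted p with DESeq2 and with limma-voom.

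Npr1 (ENSMUSG00000027931; chromosome 3, 90450591 to 90465866, minus strand), the ANP and BNP receptor, turned on 1 library. KO isoproterenol libraries measured 12.7, 14.3, 12.6, 11.2 and 29.1 CPM. The other groups measured 12.0, 11.5, 12.4, 14.4 and 11.8 CPM (WT vehicle), 10.9, 14.0, 8.71, 9.93 and 10.1 CPM (WT isoproterenol) and 15.0, 12.5, 10.1, 10.2 and 13.0 CPM (KO vehicle). Apart from KO isoproterenol replicate 5, all libraries lay within 8.71 to 15.0 CPM. The log2 fold change of isoproterenol was −0.21 in WT (SE 0.225, edgeR adjusted p = 0.631), whereas KO hearts gave 0.40 (SE 0.218, edgeR adjusted p = 0.298). Without that library the KO value was 0.05 (adjusted p = 0.849), and the average over genotypes went from 0.09 to −0.08.

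The same library held 1632 CPM of 6 summed smooth muscle and pericyte markers, against 676 to 713 CPM in the other 4 of its group. Its Tagln, a smooth muscle gene, was at 206 CPM against 17.7 to 29.7 CPM, and its Eln, elastin, at 1961 CPM against 32.8 to 43.8 CPM. Its cardiomyocyte sum was 15984 CPM against 19743 to 21747 CPM. The part of these cells in the Npr1 level was not tested. After subtraction of group means, Npr1 ran closest to Cspg4 (r = 0.939, and 0.865 without this library), Pkd1 (0.917 and 0.830) and Zyx (0.893 and 0.801) over the libraries. The subtracted means included this library in both cases, so the second values still depend on it. Without subtraction, the closest were Zyx (0.913, and 0.79 without this library), Cspg4 (0.874 and 0.622) and Map1a (0.864 and 0.891).

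**Figure D3:**
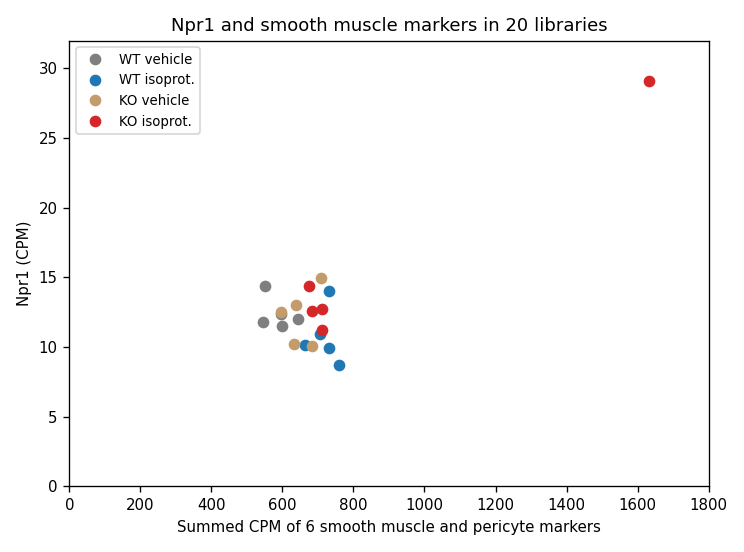
Npr1 in CPM (vertical axis) against the summed CPM of 6 smooth muscle and pericyte markers (horizontal axis), 1 point per library, coloured by group. KO isoproterenol replicate 5 stands alone at 1632 CPM of markers and 29.1 CPM of Npr1, and the other 19 libraries lie at 546 to 761 CPM of markers.

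Npr3 (ENSMUSG00000022206; chromosome 15, 11839896 to 11907287, minus strand), the clearance receptor, did not pass for isoproterenol, with log2 fold changes of 0.06 in WT (95% interval −0.10 to 0.23, edgeR adjusted p = 0.692) and 0.09 in KO (−0.07 to 0.25, adjusted p = 0.553). Corin (ENSMUSG00000005220; chromosome 5, 72300025 to 72504473, minus strand), the ANP-processing protease, had the same value of 0.12 in both genotypes (SE 0.0700 each, edgeR adjusted p = 0.333 and 0.337). Its WT libraries measured 176, 177, 194, 183 and 192 CPM with vehicle and 188, 199, 201, 203 and 208 CPM with isoproterenol. Its KO libraries measured 175, 174, 170, 168 and 151 CPM with vehicle and 176, 178, 213, 193 and 148 CPM with isoproterenol. In each genotype all but 1 of the isoproterenol libraries lay above every vehicle library, and the exception in KO, replicate 5, was the lowest of all. The averaged Corin value was 0.12 (adjusted p = 0.100), and 0.15 (adjusted p = 0.00969) without KO isoproterenol replicate 5. With WT vehicle replicate 2 left out as well, the KO value was 0.19 (adjusted p = 0.0434).

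KO was then compared with WT within each treatment and averaged over treatments. No member passed with edgeR under vehicle (0 of 9, beside 0.128% of all tested genes), under isoproterenol (0 of 9, beside 0.181%) or in the average (0 of 9, beside 0.847%). At an unadjusted p under 0.05 there were 2, 4 and 5 members, beside 8.31%, 13.0% and 12.8% of all tested genes. DESeq2 and limma-voom also called 0 members after adjustment, with 2, 3 and 6 and with 2, 5 and 5 members under the unadjusted threshold.

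Npr3 had the smallest p of the 9 in the average over treatments. It measured 28.6, 26.1, 32.8, 31.6 and 26.4 CPM in WT vehicle and 37.1, 33.1, 29.7, 32.9 and 32.4 CPM in KO vehicle libraries. Under isoproterenol it measured 25.6, 32.3, 30.6, 31.9 and 31.6 CPM in WT and 37.4, 31.3, 33.2, 40.0 and 34.0 CPM in KO libraries. All 5 KO libraries lay above the WT mean under each treatment, with overlapping ranges. The log2 fold change was 0.18 under vehicle (edgeR adjusted p = 0.544), 0.21 under isoproterenol (adjusted p = 0.270) and 0.20 in the average (SE 0.0568, adjusted p = 0.100). It passed in 1 alternative, without a filter on low counts (adjusted p = 0.0361).

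Corin, at 175.0 CPM at most, was lower in every KO vehicle library than in any WT vehicle library, at 175.6 CPM at least. Such a narrow or wider separation in this direction was found for 1.03% of all tested genes. The log2 fold change was −0.14 under vehicle (SE 0.0700, edgeR adjusted p = 0.616) and −0.14 under isoproterenol (adjusted p = 0.401), where the ranges overlapped. Without KO isoproterenol replicate 5 the latter was −0.07 (edgeR adjusted p = 0.692). The averaged values of the others were 0.14 for Ace (95% interval 0.02 to 0.26, adjusted p = 0.275), −0.16 for Agtr1a (−0.29 to −0.03, adjusted p = 0.288), −0.14 for Nr3c2 (−0.26 to −0.02, adjusted p = 0.296) and 0.10 for Agt (−0.24 to 0.45, adjusted p = 0.861). Npr2 stood at 0.00 (−0.09 to 0.10, adjusted p = 0.987), from −0.13 under vehicle (adjusted p = 0.619) and 0.13 under isoproterenol (adjusted p = 0.383), and Hsd11b1 at −0.02 (−0.20 to 0.16, adjusted p = 0.964). Npr1 was 0.59 higher in KO under isoproterenol (SE 0.222, edgeR adjusted p = 0.280), and 0.24 (adjusted p = 0.469) without KO isoproterenol replicate 5. All 6 cardiomyocyte markers had negative KO against WT values under vehicle (median −0.115), and 0 of them passed. In the average over treatments 2 of 7 fibroblast markers were higher in KO, beside 0.847% of all tested genes. The part of cell composition in the values between genotypes was not tested.

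**Figure D4:**
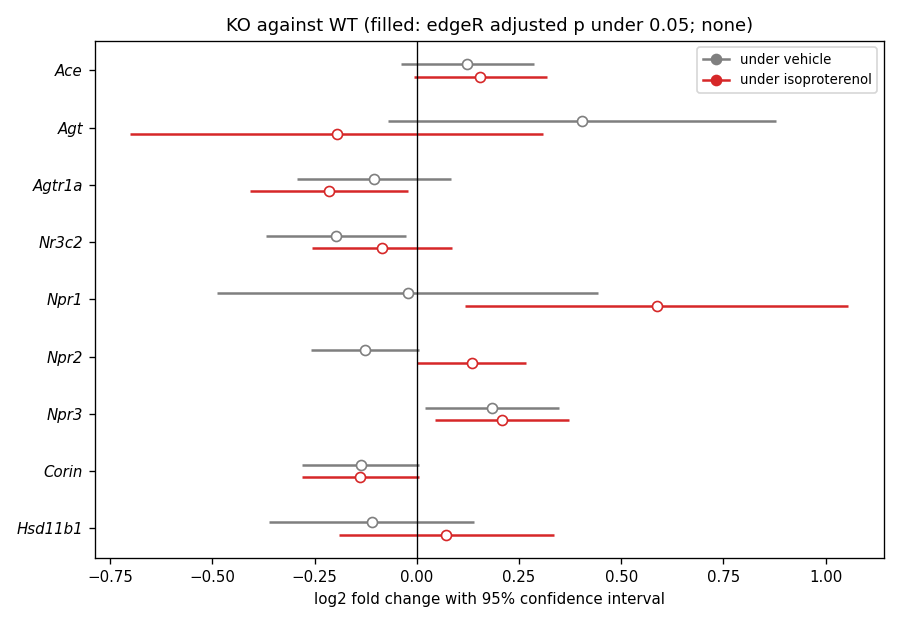
Log2 fold change of KO against WT (horizontal axis) for each of the 9 genes under vehicle and under isoproterenol, with 95% intervals from the edgeR fit of 20 libraries; open points did not pass at an adjusted p under 0.05. All points are open, with Npr3 right of 0 and Corin left of 0 under both treatments.

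The other members ran closest over the 20 libraries, without subtraction of group means, to Zfp946 (Agt, Pearson r = 0.822), Ppp1r14c (Agtr1a, 0.856), Ttc38 (Nr3c2, 0.756), Rnf123 (Npr2, 0.847), Ccn4 (Npr3, 0.765), Lrrfip2 (Corin, 0.841) and Adh5 (Hsd11b1, 0.853). Among the members themselves, after subtraction of group means, Npr1 and Corin gave r = −0.62, which rested on KO isoproterenol replicate 5 and was −0.136 without it. Ace and Hsd11b1 gave −0.584 (−0.518 without it), and Agt and Hsd11b1 0.60 (0.545 without it). These pairs were picked as the largest in size of all member pairs over the 20 libraries. Without KO isoproterenol replicate 5 the largest were Agtr1a and Npr1 (−0.614, and −0.34 with it), Agt and Nr3c2 (−0.566 and −0.449) and Npr1 and Npr2 (0.56 and 0.349). These coefficients describe libraries that share scaling and depth.

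The other genes of these pathways came from a list of 52, of which 39 were tested. With isoproterenol 9 of 39 passed in WT (6 higher, 3 lower), 6 in KO (3 higher, 3 lower) and 13 in the average (8 higher, 5 lower), beside the 8.76%, 9.03% and 18.8% of all tested genes. Without both libraries that stood apart the counts were 9, 8 and 13. With edgeR no gene of the list passed for KO against WT or for the difference between responses (0 of 39 each). At an unadjusted p under 0.05 there were 7 under vehicle, 5 under isoproterenol, 5 in the average and 7 for the difference. The shares of all tested genes were 8.31%, 13.0%, 12.8% and 7.68% in the same order. DESeq2 called Rgs2 for KO against WT in the average and Per1 for the difference, and limma-voom called 0.

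Of 13 tested renin-angiotensin genes 6 rose and 2 fell in the average, beside 9.76% higher and 9.07% lower among all tested genes. The aminopeptidase gene Anpep, whose product trims angiotensin peptides, rose in KO by a log2 fold change of 0.62 (SE 0.0958, edgeR adjusted p = 7.88e-05), from 8.62 ± 0.723 to 13.2 ± 1.35 CPM (SD, n = 5 each), and measured 0.20 in WT (adjusted p = 0.205). Its difference between the genotypes, 0.41, did not pass (edgeR adjusted p = 0.518).

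The lysosomal protease Ctsd rose in the average by 0.32 (SE 0.0530, edgeR adjusted p = 6.29e-05), and Agtrap, a binding partner of the type 1 receptor, rose by 0.23 (SE 0.0535, adjusted p = 0.00313). The chymase genes Cma1 and Mcpt4, which encode mast cell proteases, rose by 0.87 (edgeR adjusted p = 0.00418) and 0.69 (adjusted p = 0.00929). Their levels were 0.0699 to 1.67 CPM in all libraries. The 4 mast cell markers, Mcpt4 among them, summed to 4.68 to 7.06 and 5.52 to 8.55 CPM in WT. Without WT vehicle replicate 2 the WT vehicle range was 4.68 to 5.76 CPM. In KO these markers summed to 5.58 to 7.23 and 5.94 to 7.62 CPM, and their part was not tested. The aminopeptidase gene Lnpep fell by 0.16 (adjusted p = 0.0146). Rgs2, a brake on angiotensin receptor signalling, fell by 0.29 (adjusted p = 0.0167, and 0.0610 with 2 surrogate variables), and its KO against WT value in the average was −0.34 (edgeR adjusted p = 0.0523). That value passed in 9 of 29 alternatives, and its adjusted p over all 29 ran from 1.83e-06, without a filter on low counts, to 0.102. Among those 9 were DESeq2 (adjusted p = 0.00957), RLE scaling (0.0462), upper quartile scaling (0.0494) and the fit without mitochondrially encoded genes (0.0467). The other 4 left out WT vehicle replicate 1 (0.0113), WT isoproterenol replicate 3 (0.0321), KO vehicle replicate 2 (0.0298) or KO isoproterenol replicate 1 (0.0431).

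**Figure D5:**
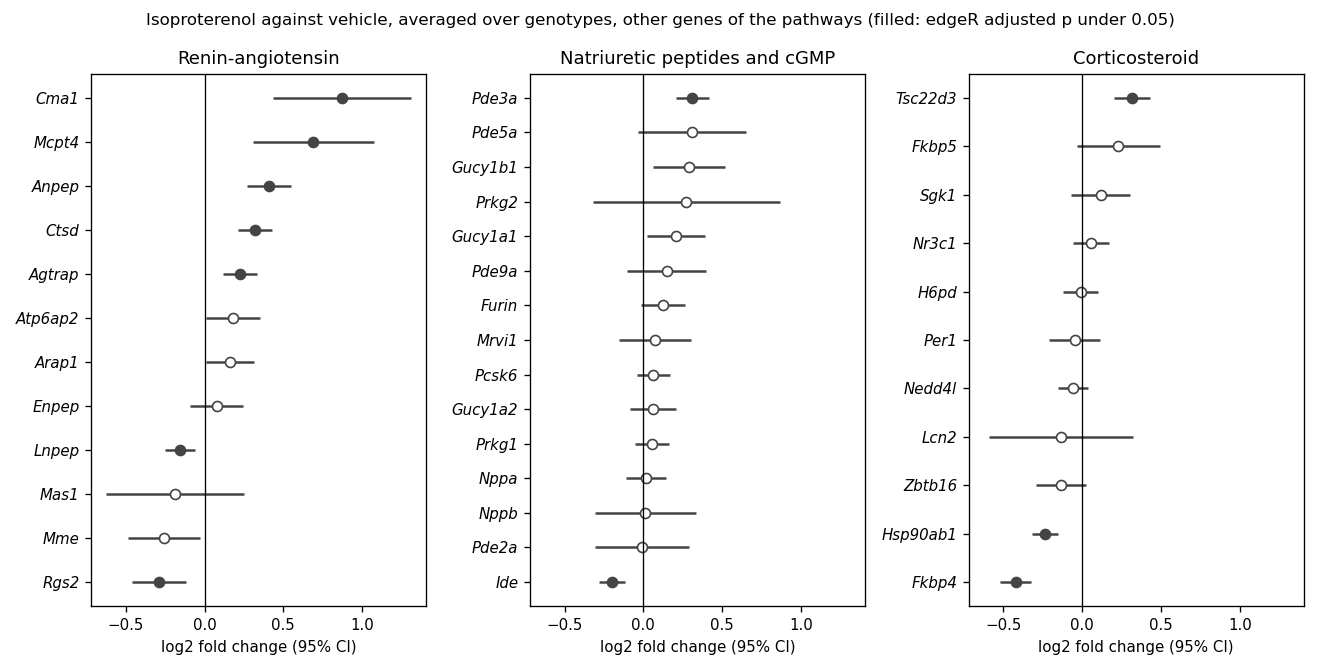
Log2 fold change of isoproterenol against vehicle averaged over genotypes (horizontal axis) for tested genes of the other pathway list, 1 panel per pathway, with 95% intervals from the edgeR fit; filled points passed at an adjusted p under 0.05. Of the genes drawn, Cma1 (0.87) and Mcpt4 (0.69) rose most.

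Of 15 tested genes of natriuretic peptides and cGMP, 1 rose and 1 fell in the average, beside 18.8% of all tested genes called. Pde3a, a cGMP-inhibited phosphodiesterase, rose by 0.31 (SE 0.0515, edgeR adjusted p = 6.85e-05), and Ide, a protease that degrades ANP as well as insulin, fell by 0.20 (SE 0.0413, adjusted p = 8.49e-04). The ligand gene Nppa (ANP) measured 321 ± 28.2 CPM in WT vehicle, 355 ± 21.1 in WT isoproterenol, 378 ± 42.8 in KO vehicle and 349 ± 55.8 CPM in KO isoproterenol. Nppb (BNP) measured 25.8 ± 6.07, 32 ± 9.20, 42.5 ± 5.96 and 34.9 ± 8.00 CPM in the same order (SD, n = 5 each). Its KO against WT value under vehicle was 0.71 (SE 0.215, edgeR adjusted p = 0.279), and every KO vehicle library, at 36.3 to 48.8 CPM, lay above the WT vehicle range of 17.7 to 33.0 CPM. Such a separation, with KO higher, held for 0.995% of all tested genes. Nppc and Ostn reached 4 and 5 counts at most and were not tested.

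Of 11 tested corticosteroid genes 1 rose and 2 fell, in WT, in KO and in the average. The shares of all tested genes called were 8.76%, 9.03% and 18.8%. Tsc22d3, a glucocorticoid-induced leucine zipper gene, rose by 0.31 (SE 0.0567, edgeR adjusted p = 1.83e-04) in the average. The co-chaperone gene Fkbp4 fell by 0.42 (SE 0.0477, adjusted p = 1.92e-07) and the chaperone gene Hsp90ab1 by 0.24 (SE 0.0408, adjusted p = 1.05e-04), both parts of the steroid receptor complex. Several steps of these pathways were close to absent from the heart libraries. The highest count in a library was 3 for renin (Ren1), 9 for the type 2 receptor (Agtr2), 5 for the second type 1 receptor (Agtr1b), 1 for Hsd11b2, and 0 for both Cyp11b1 and Cyp11b2, the last enzymes of corticosteroid synthesis. A count of 0 allows up to 3 counts in a library, for counting error only.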

How the data were processed

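Heart RNA libraries were made with a stranded total RNA kit, per the labels' protocols. Raw counts per gene formed the deposited table. The authors' tools were HISAT2 2.1.0 and featureCounts 1.6.3, on build GRCm38, with R 3.6.0 and limma 3.40.6 listed too, per the submitters' processing notes. Strand setting, annotation release and handling of multi-mapping reads are not given in the sources used here. All 20 columns were matched to samples by name, and 0 columns had no sample. Total counts of 14609808 to 43671055 per library limit the precision of low genes.

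Symbols and positions were looked up in GENCODE vM21 (GRCm38), which held 55154 of the 55335 IDs. The tests used edgeR 4.0.16 under R 4.3.3 (filterByExpr, TMM, robust quasi-likelihood fit with 4 group means, 16 residual degrees of freedom), and p-values were adjusted by Benjamini-Hochberg over all 14878 tested genes at 0.05. CPM values are TMM-scaled. Intervals are at 95%. Alternatives used DESeq2 1.42.0, limma-voom (limma 3.58.1), other scalings and filters, sva 3.50.0, only the groups compared, and libraries left out. The tests were checked on simulated data.

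Named genes were the 9 members and the ligands whatever their p, other pathway genes past the threshold, and the genes most like each member in log2 CPM. The members, lists and both libraries that stood apart were chosen with earlier results of these data known. Tagln, Eln, Lamb3, Per1 and Rgs2's value between genotypes were added after their values were seen. A gene of the pathway list that the rule names is counted but not reported here. Alternatives for the other pathway genes were chosen after seeing the data. Promoter windows came from RefSeq (GRCm38.p6), with motifs matched on both strands. Python 3.11.15 with matplotlib 3.10.9 made the figures.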

Additional observations from a re-analysis of the deposited data

Results flagged for a closer look

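In 4 of 36 groups of 5 libraries, 1 for each member and group, 1 library lay far from its group by Dixon's criterion (a gap above 0.710 of the range). Chance flags about 1 in 20 groups. Npr1 measured 29.1 CPM in KO isoproterenol replicate 5, against 11.2 to 14.3 CPM in the other 4 libraries. Agtr1a was lowest in KO isoproterenol replicate 2, at 11.7 CPM against 13.7 to 14.4 CPM. Npr2 was lowest in WT vehicle replicate 1, at 28.7 CPM against 32.4 to 33.5 CPM. Npr3 was lowest in WT isoproterenol replicate 1, at 25.6 CPM against 30.6 to 32.3 CPM.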

How the results depend on the processing

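Counts of 27 to 170 per library limit Agt and Hsd11b1. No paired analysis was possible because the labels give no replicate numbers, and those used here only name the libraries. Ace kept its direction and its call for isoproterenol in every alternative run. The members called in KO went from 1 to 2 with DESeq2, with 2 surrogate variables and without both libraries that stood apart, and to 3 with no filter on low counts. Leaving out 1 library at a time gave 1 to 2 in KO and 1 to 3 in WT. With no filter 1 member passed for KO against WT in the average, and 10 other pathway genes passed for isoproterenol in KO.

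Over all tested genes, KO against WT under vehicle gave 19 calls, and 61 with DESeq2, 117 with no filter, 48 with 2 surrogate variables, 38 without both libraries, and 10 to 35 with 1 library left out. Under isoproterenol these were 27, and 128, 250, 45, 50, and 10 to 55. In the average they were 126, and 226, 350 and 262 for the first 3 alternatives, and 74 to 143 with 1 library left out. For the difference between responses they were 0, and 5 with DESeq2, 34 with no filter, 4 without both libraries, and 0 to 1. The cause was not tested.

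Signs that turned were all of values that did not pass. For Npr1, isoproterenol in the average was −0.052 with 2 surrogate variables, −0.091 without both libraries and −0.078 to 0.15 with 1 library left out, and KO against WT under vehicle was −0.10 to 0.036. KO against WT in the average was −0.00034 for Npr2 with DESeq2, −0.00015 without mitochondrially encoded genes and −0.015 to 0.025 with 1 library left out. For Hsd11b1 it was 0.0014 with 2 surrogate variables and −0.051 to 0.019. The difference between responses for Corin was 0.0032 with DESeq2, 0.0031 with RLE scaling, 0.0016 with at least 20 counts in 5 libraries, 0.0082 without mitochondrially encoded genes, 0.051 with 2 surrogate variables, 0.085 without both libraries and −0.066 to 0.070 with 1 left out. For Ace it was −0.063 with 2 surrogate variables, −0.070 without both libraries and −0.032 to 0.078, and for Agtr1a 0.047 with 2 surrogate variables. With 1 library left out, that for Npr3 was −0.027 to 0.070, and isoproterenol in WT for Agt was −0.21 to 0.053.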
